A study of Mus musculus with 11 samples.

Results

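The 86 genes described here encode molecular chaperones and the co-chaperones that work with them, out of 19938 genes with a probe set of their own in these data. They were taken by symbol: the Hspa, Hspb, Hspd, Hspe and Hsph families with their named partners, the DnaJ subfamilies A, B and C, the Hsp90 genes, the subunits of the CCT chaperonin with Tcp1, and Bag1 to Bag6. Each gene was read by its brightest probe set over all arrays, and the rule uses the symbol and the brightness, not a difference between genotypes. Of the 86, 75 were bright enough to be tested, among 11963 genes tested in all. Hsp90ab1 and Hspa1b had no probe set of their own and are not among the 86.

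The samples were nucleus accumbens, enriched in its shell, from 6 wild-type (WT) male mice and 5 male littermates that the labels call RARbeta-null, written here as Rarb-null. All were 4 to 5 months old, behaviourally untested, and bred from heterozygous parents on a mixed background of C57BL/6J and 129SvEms/j. Rarb encodes retinoic acid receptor beta, a nuclear receptor of the striatum. The labels speak of a null mutant, and name neither the deleted part of the gene nor a promoter or Cre. The mutation is therefore taken here to be present in all cells. RNA of each mouse was hybridised to its own Affymetrix Mouse Gene 1.0 ST array, and values are log2 expression after robust multi-array analysis (RMA), so that 1 unit is a doubling. Differences are Rarb-null minus WT. A level is given as mean ± SD (n = 6 WT and n = 5 Rarb-null arrays), and SE is the standard error of the limma fit.

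Chaperones keep other proteins folded, and in neurons they also work at the synapse and in the secretory pathway. Hsp70 proteins bind and release unfolded stretches in a cycle driven by ATP. DnaJ proteins bring them substrates and start hydrolysis, while BAG proteins, HspBP1 and the Hsp110 proteins exchange the nucleotide that ends the cycle. Hsp90 takes over kinases and steroid receptors late in folding, chaperonins enclose a substrate in a ring, and small heat shock proteins hold unfolded proteins without ATP. Heat shock factors induce many of these genes under stress, and a separate response serves the endoplasmic reticulum.

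Rarb read 11.70 to 11.81 in the WT arrays and 9.72 to 10.01 in the Rarb-null arrays, which checks the titles. It was lower by a log2 difference of -1.86 (SE 0.047; limma with Benjamini-Hochberg adjustment, adjusted p = 4.44e-11). The protocol text swaps the numbers of mice in the groups, and the Rarb levels followed the titles on all 11 arrays. Array medians over all probe sets were 7.02 to 7.06 in WT and 7.08 to 7.11 in Rarb-null, and pairwise correlations of arrays ran from 0.989 to 0.997. The Rarb probe set thus still read above the median of each Rarb-null array, and what this remaining signal stands for was not tested. Markers of GABAergic projection neurons, the main cell of this tissue, were at a mean of 11.86 to 11.93 in WT and 11.58 to 11.71 in Rarb-null arrays, and 10 of 13 tested were lower.

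Most chaperone genes did not pass the test. Of 75 tested, 3 rose in the Rarb-null arrays (Hspa2, Hspa1a and Tcp1), 7 fell (Bag5, Dnajc21, Dnajc3, Dnajc12, Hspd1, Dnajb11 and Hsph1) and 65 were not called at an adjusted p below 0.05. The shares, 4% higher and 9.33% lower, stand beside 7.56% higher and 12% lower over all genes tested, 19.6% in either direction. Both shares were below those of all genes, so the chaperone genes as a set were not called more often than the rest. Among the 65, 12 had an unadjusted p under 0.05. The median difference was -0.031 over the chaperone genes and -0.017 over all genes, and the median size of a difference was 0.063 and 0.07. The groups did not overlap for 2 chaperone genes with Rarb-null above and 4 with Rarb-null below, beside 3.82% and 7.33% of all genes, 11.2% together.

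**Figure D1:**
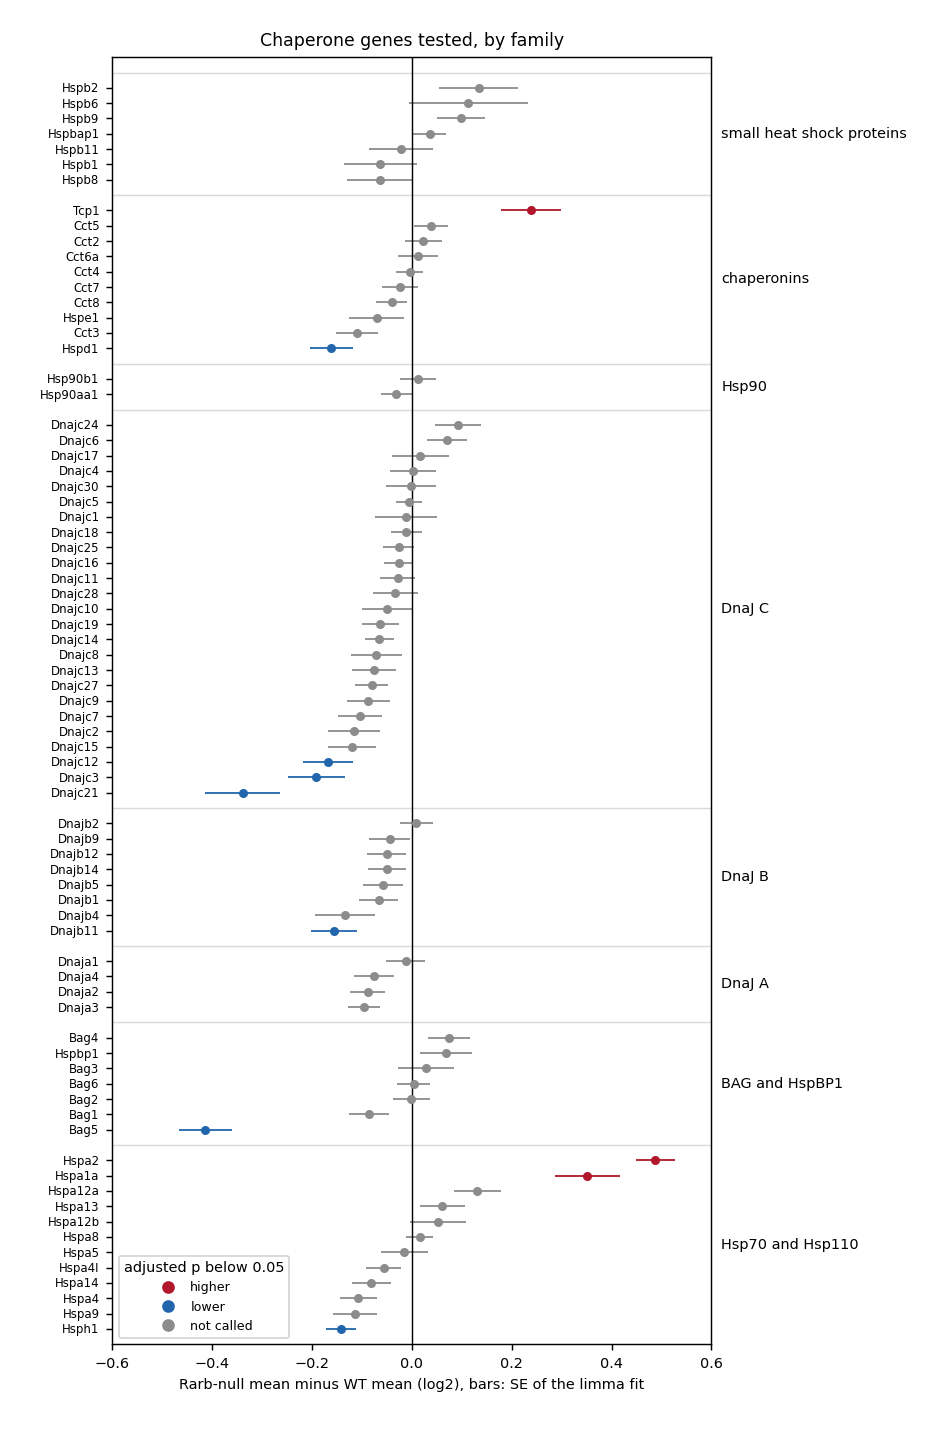
The 75 chaperone genes tested, 1 point each, ordered by family, with the Rarb-null minus WT difference in log2 on the horizontal axis, bars for the SE of the limma fit and colours for the call. Hspa2 at 0.49 and Bag5 at -0.41 stand at the ends, and 32 of 37 DnaJ genes lie left of 0. If arrays are centred on the median of tested genes, 23 of 37 do.

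The tissue samples also differed in markers of other cells, and 7 of the 10 calls ended with 1 or both of these marker levels as a covariate, though 6 of these 7 differences kept about their size with the cortical one. In WT arrays the mean level of 8 cortical neuron markers ran from 8.31 to 9.14, and in Rarb-null arrays from 9.03 to 9.69. All 8 had a positive difference and 3 of the 8 were called higher. The mean of 9 oligodendrocyte markers ran from 9.31 to 9.54 in WT, against 9.12 to 9.36 in Rarb-null arrays, and 4 of the 9 were called lower. The dimmest tested of each list, Fezf2 and Aspa, read 7.19 and 7.59 in WT. Astrocyte markers averaged 10.35 and 10.25, with 1 higher and 4 lower of 9, whereas 0 of 8 microglial and 0 of 8 endothelial markers were called by limma (3 and 1 at an unadjusted p under 0.05). With the cortical mean as a covariate, 2 chaperone genes were higher (Hspa2 and Tcp1) and 1 lower (Bag5). With the oligodendrocyte mean, 3 were higher (Hspa2, Hspa1a and Tcp1) and 3 lower (Bag5, Dnajc12 and Dnajc27). Calls were lost over all genes too. The shares of 7.56% higher and 12% lower became 2.79% and 6.11% with the cortical covariate. With the oligodendrocyte covariate they were 2.06% and 5.02%. Among the 7 that lost the call with the cortical covariate, Hspa1a went from 0.35 to 0.18, while Dnajc21 (-0.35), Dnajc3 (-0.21), Dnajc12 (-0.16), Hsph1, Dnajb11 and Hspd1 (each -0.13) stayed close to their values without it. With the oligodendrocyte covariate Hspd1 was at -0.09, Dnajc21 at -0.25, Dnajc3 and Hsph1 at -0.15 and Dnajb11 at -0.14. In whole tissue, fewer cells of a type and less RNA per cell cannot be told apart.

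Among the Hsp70 and Hsp110 proteins, the stress-inducible Hspa1a and the germ-line form Hspa2 rose, and the exchange factor Hsph1 fell. Of 13 genes, 12 were tested, 2 were higher, 1 was lower and 9 were not called, with a median of 0.001. Hspa2, an Hsp70 best known from the male germ line, read 8.74 to 8.93 in WT (median 8.83) and 9.32, 9.30, 9.33, 9.40 and 9.25 in Rarb-null arrays 1 to 5. Every Rarb-null array was above every WT array, by more than the whole spread of either group. The means were 8.83 ± 0.07 and 9.32 ± 0.05, a difference of 0.49 (SE 0.039) or 1.4-fold (limma, adjusted p = 2.04e-06; two-sided exact permutation p = 0.00216, the smallest that 462 splits allow). Hspa2 was called higher in all 11 fits that left out an array and in all 12 other settings, with differences from 0.46 to 0.53. The 12 include the symbols as annotated, a setting that changed 0 symbols and repeats the main fit.

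Hspa1a, the Hsp70 that cells make under stress, was a dim gene on these arrays. It read 6.78 to 7.07 in WT (median 6.90) and 7.14, 7.13, 7.35, 7.29 and 7.42 in Rarb-null arrays 1 to 5. The groups were next to each other without overlap. The means were 6.92 ± 0.12 and 7.27 ± 0.13, a difference of 0.35 (SE 0.065) or 1.28-fold (limma, adjusted p = 0.00248; two-sided exact permutation p = 0.00216). The WT mean lay under the level of 6.99 that a gene's mean over all arrays had to pass, so this gene was tested through its higher group. With the cortical marker covariate its difference was 0.18 (limma, adjusted p = 0.123).

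Hspa1b, the close copy of Hspa1a, is read only by a probe set annotated to both genes. That probe set read 8.37 ± 0.08 in WT, against 8.53 ± 0.14 in Rarb-null arrays, a difference of 0.16 (two-sided exact permutation p = 0.039), and its groups overlapped. Whether the Hspa1a probe set also reads Hspa1b RNA was not tested, so the signal is uncertain between the copies. In RefSeq the 250 bases before their starts differ at 3 positions. The stretch before Hspa1a (GRCm38.p6, chr17:34972157-34972406, minus strand) is shown because it carries a pair of heat shock units, GAANNTTC, marked in capitals:

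Hspa1a: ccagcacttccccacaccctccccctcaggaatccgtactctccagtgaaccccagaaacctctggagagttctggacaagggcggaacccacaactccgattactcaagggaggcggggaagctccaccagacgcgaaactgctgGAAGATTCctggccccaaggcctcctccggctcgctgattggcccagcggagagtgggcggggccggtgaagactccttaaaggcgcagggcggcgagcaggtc

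Hsph1, an Hsp110 protein that exchanges the nucleotide of Hsp70, fell by a small amount in a narrow spread. It read 10.93 to 11.01 in WT (median 10.97) and 10.90, 10.78, 10.83, 10.81 and 10.83 in Rarb-null arrays 1 to 5. No Rarb-null array reached the WT range. The means were 10.97 ± 0.03 and 10.83 ± 0.05, a difference of -0.14 (SE 0.030) or 1.1-fold (limma, adjusted p = 0.00666; two-sided exact permutation p = 0.00216). Its difference was -0.13 with the cortical covariate, -0.15 with the oligodendrocyte covariate and -0.13 without WT arrays 3 and 4 and Rarb-null array 5, close to the value above, with adjusted p in limma of 0.104, 0.0505 and 0.0656. The longer heat shock element, 3 units in a row, lies after the start of the gene at GRCm38.p6 chr5:149636287-149636316 on the minus strand, starting at base 37 counted from the start; its letters are in capitals:

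Hsph1: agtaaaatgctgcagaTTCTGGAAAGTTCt

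The remaining Hsp70 genes did not pass the test. Hspa4, another Hsp110 protein, had a difference of -0.11 (SE 0.037; limma, adjusted p = 0.0604), and Hspa9, the Hsp70 of mitochondria, -0.11 (limma, adjusted p = 0.08). Hspa12a, a distant Hsp70 relative, had 0.13 (limma, adjusted p = 0.0659). It was called higher in 5 of the 12 other settings and in 0 of the 11 fits without an array. The 5 were centring on the median of tested genes (0.17), repeated quantile normalisation (0.16), trended and robust variance, array weights and the replicate block. With the cortical covariate it was at 0.02 (limma, adjusted p = 0.886), and without WT arrays 3 and 4 and Rarb-null array 5 at 0.06 (limma, adjusted p = 0.387). Hspa5, the Hsp70 of the endoplasmic reticulum, had -0.015, and Hspa13, Hspa14, Hspa4l and Hspa12b lay between -0.081 and 0.061. Hspa1l was too dim to test.

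Hspa8, the constitutive Hsp70 of the cytosol that also uncoats clathrin vesicles, gave readings that differed between its probe sets. The brightest read 13.12 ± 0.03 in WT and 13.13 ± 0.01 in Rarb-null arrays, a difference of 0.02 (SE 0.027; limma, adjusted p = 0.7), and a second probe set also gave 0.02. The third, named here after its values were seen, read 12.95 to 13.06 in WT and 12.76, 11.90, 11.84, 12.73 and 11.66 in Rarb-null arrays 1 to 5. Its groups did not overlap, and the Rarb-null arrays spread over more than a log2 unit while the WT arrays kept within 0.11. The means were 13.00 ± 0.04 and 12.18 ± 0.53, a difference of -0.82 (SE 0.178) or 1.76-fold (limma with every probe set fitted on its own, adjusted p = 0.00703 over 13073 probe sets; two-sided exact permutation p = 0.00216). Probe sets annotated to Hspa8 together with Snord14d and Snord14c each read 9.44 ± 0.25 in WT and 9.22 ± 0.23 in Rarb-null arrays. Their difference was -0.22 (two-sided exact permutation p = 0.167), and their groups overlapped. Hspa8 is known to have processed copies in the mouse genome, and the sources used here do not say whether each probe set matches the gene itself or a copy. The level of the gene in Rarb-null tissue is therefore uncertain.

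**Figure D2:**
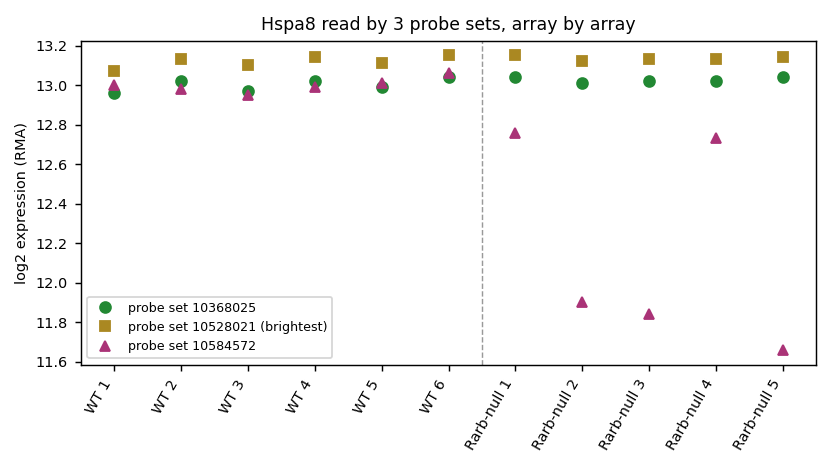
Log2 expression of Hspa8 on the vertical axis, array by array on the horizontal axis, with a marker shape for each of its 3 probe sets and a dashed line between the genotypes. The brightest and the second probe set stay between 12.96 and 13.15 on every array, while the third drops to 11.66 to 12.76 in the Rarb-null arrays.

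Among the exchange factors, Bag5 fell and the other 6 were not called. Bag5, a protein of repeated BAG domains that binds Hsp70 and exchanges its nucleotide, read 9.65 to 9.92 in WT (median 9.81) and 9.48, 9.34, 9.23, 9.46 and 9.37 in Rarb-null arrays 1 to 5. Every Rarb-null array was below every WT array. The means were 9.79 ± 0.09 and 9.37 ± 0.10, a difference of -0.41 (SE 0.053) or 1.33-fold (limma, adjusted p = 0.000141; two-sided exact permutation p = 0.00216). Like Hspa2, it was called in all 11 fits without an array and in all 12 other settings, from -0.44 to -0.37. Coa8, the next gene on chromosome 12, whose annotated span reaches into the 250 bases before a start of Bag5, had a difference of 0.00 (SE 0.049; limma, adjusted p = 0.979). Bag1, which also binds Hsp70, had -0.09 and Bag4 0.08, with adjusted p of 0.146 and 0.217 in limma. Hspbp1 had 0.07, Bag3, which takes Hsp70 clients to autophagy, 0.028, and Bag2 and Bag6 -0.001 and 0.004.

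The DnaJ genes leaned to one side, with few calls. Of 45 genes, 37 were tested: 4 fell (Dnajc21, Dnajc3, Dnajc12 and Dnajb11), 0 rose in the limma fit, and 33 were not called, of which 8 had an unadjusted p under 0.05. The difference was negative for 32 and positive for 5, with a median of -0.058, in a comparison in which 6840 of all 11963 genes were negative. The split moved with the scaling: 23 negative and 14 positive with each array centred on its median, and 25 and 12 after repeated quantile normalisation, each with only Dnajc21 called. The shares called, 0% higher and 10.8% lower, lie below the background shares given above.

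Dnajc21, a DnaJ protein with a role in ribosome maturation, had the largest fall of these. It read 7.58 to 7.95 in WT (median 7.74) and 7.49, 7.42, 7.13, 7.44 and 7.55 in Rarb-null arrays 1 to 5. The groups lay close together but did not overlap. The means were 7.74 ± 0.13 and 7.40 ± 0.16, a difference of -0.34 (SE 0.075) or 1.26-fold (limma, adjusted p = 0.00784; two-sided exact permutation p = 0.00433). It was called in all 11 fits without an array, while its difference was -0.35 with the cortical covariate and -0.25 with the oligodendrocyte covariate (limma, adjusted p of 0.0708 and 0.171).

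Dnajc3, a co-chaperone of the lumen of the endoplasmic reticulum that is also known to inhibit kinases of the stress response, read 8.84 to 9.06 in WT (median 8.90) and 8.84, 8.73, 8.51, 8.76 and 8.80 in Rarb-null arrays 1 to 5. At 2 decimals the groups touched at 8.84, and beyond them they did not overlap. The means were 8.92 ± 0.08 and 8.73 ± 0.13, a difference of -0.19 (SE 0.058) or 1.14-fold (limma, adjusted p = 0.0349; two-sided exact permutation p = 0.00216). It was called in 5 of the 11 fits without an array and in 7 of the 12 other settings. Its gene lies on chromosome 14, as Rarb does, 713 protein-coding genes away from it. Its next gene, Uggt2, which encodes a glycoprotein folding sensor, was also lower, at -0.68 (SE 0.154; limma, adjusted p = 0.0083). The stretch before Dnajc3 (GRCm38.p6, chr14:118937682-118937931, plus strand) holds the endoplasmic reticulum stress element, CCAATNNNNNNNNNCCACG, in capitals:

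Dnajc3: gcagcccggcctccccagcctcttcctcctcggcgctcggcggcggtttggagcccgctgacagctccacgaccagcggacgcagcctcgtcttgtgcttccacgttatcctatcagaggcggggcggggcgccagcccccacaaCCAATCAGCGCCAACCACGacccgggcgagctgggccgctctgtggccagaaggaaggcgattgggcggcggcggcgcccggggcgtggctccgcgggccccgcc

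Dnajb11, which serves Hspa5 in the same compartment, read 8.89 to 9.11 in WT (median 8.95) and 8.89, 8.73, 8.74, 8.89 and 8.80 in Rarb-null arrays 1 to 5. The lowest WT array and the highest Rarb-null arrays met at 8.89. The means were 8.97 ± 0.08 and 8.81 ± 0.08, a difference of -0.16 (SE 0.046) or 1.11-fold (limma, adjusted p = 0.0303; two-sided exact permutation p = 0.00866). WT array 1, at 9.11, was the highest, and without it the adjusted p in limma was 0.0522. Of the 11 fits without an array, 6 kept the call.

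Dnajc12, a partner of Hsp70 for the aromatic amino acid hydroxylases that make dopamine and serotonin precursors, read 8.59 to 8.84 in WT (median 8.78) and 8.65, 8.47, 8.57, 8.71 and 8.55 in Rarb-null arrays 1 to 5. Its groups overlapped through WT array 6 at 8.59, while the other WT arrays read 8.75 or more. The means were 8.76 ± 0.09 and 8.59 ± 0.09, a difference of -0.17 (SE 0.051) or 1.12-fold (limma, adjusted p = 0.0361; two-sided exact permutation p = 0.0173). The call held in 3 of the 11 fits without an array.

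Of the other DnaJ genes, Dnaja3, a mitochondrial DnaJ protein, came closest at -0.10 (SE 0.032; limma, adjusted p = 0.0517). Dnajc15, of the inner mitochondrial membrane, had -0.12 (limma, adjusted p = 0.0933), Dnaja2 -0.088 and Dnajc7 -0.104. The synaptic DnaJ proteins showed little: Dnajc5, the cysteine string protein of synaptic vesicles, read 11.63 ± 0.03 in WT with a difference of -0.005, and Dnajc6, the neuronal auxilin, had 0.07 (limma, adjusted p of 0.906 and 0.226). Dnajb4 had -0.13 (limma, adjusted p = 0.133), and Dnajb1, the stress-inducible partner of Hspa1a, -0.066. Dnajc13 was read by 15 probe sets, all 15 with a negative difference and 0 called lower.

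Probe sets disagreed for Dnaja1 too, a DnaJ protein of the cytosol. Its brightest gave -0.01 (SE 0.04) and a dimmer one -0.17 (SE 0.051; limma over probe sets, adjusted p = 0.0372), while a probe set shared with Mir207 gave 0.18 (two-sided exact permutation p = 0.0433). Dnajb6, which keeps aggregating proteins in solution, was too dim to test through its own probe set (6.45 in WT and 6.60 in Rarb-null), whereas 4 probe sets shared with Gm4247 read 12.12 to 12.55 in both groups and differed by -0.02.

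**Figure D3:**
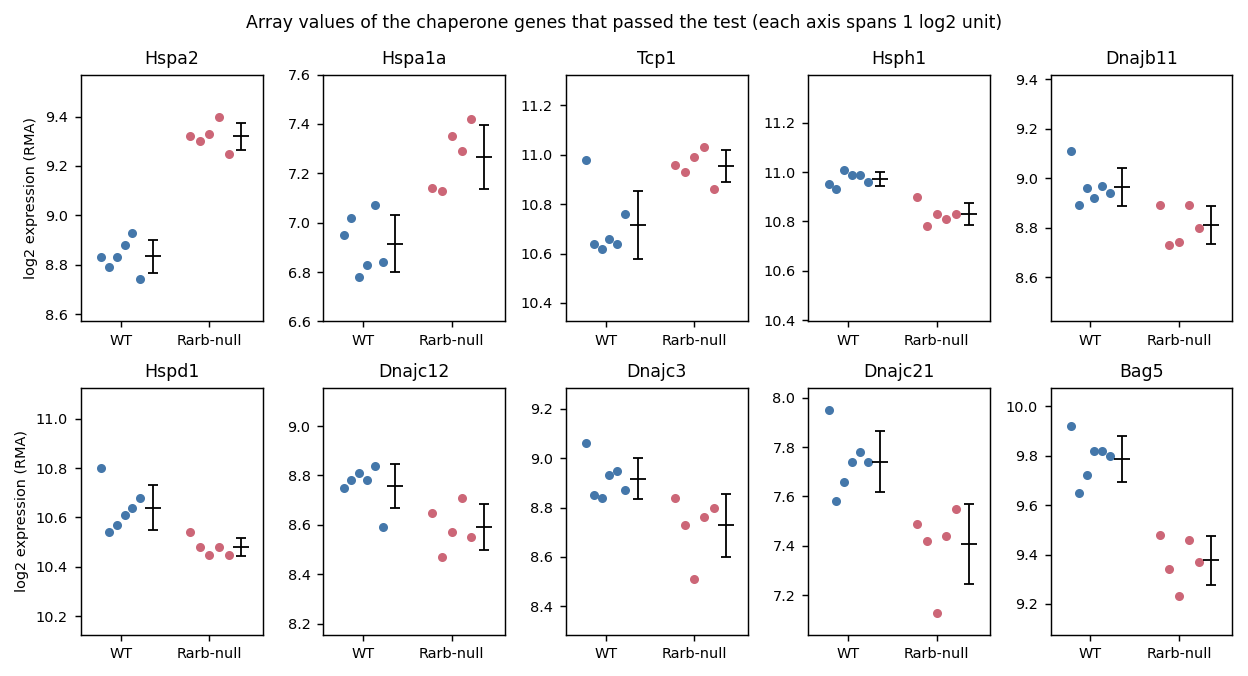
Log2 expression of the 10 chaperone genes that passed the test, 1 panel per gene spanning 1 log2 unit, with a point for each array (6 WT, 5 Rarb-null) and a black mark for the mean with its SD. Hspa2 and Bag5 show the widest gaps between genotypes, and Tcp1, Dnajc12, Hspd1 and Dnajb11 overlap or meet.

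Among the chaperonins, Tcp1 rose and Hspd1 fell, with 8 of 10 not called and a median of -0.013. Tcp1 encodes 1 of the 8 subunits of CCT, the ring that folds actin and tubulin. It read 10.62 to 10.98 in WT (median 10.65) and 10.96, 10.93, 10.99, 11.03 and 10.86 in Rarb-null arrays 1 to 5. WT array 1, at 10.98, lay inside the Rarb-null range, and the other 5 WT arrays lay below it. The means were 10.72 ± 0.14 and 10.96 ± 0.06, a difference of 0.24 (SE 0.060) or 1.18-fold (limma, adjusted p = 0.0157; two-sided exact permutation p = 0.013). The call ended in 1 of 12 other settings, without WT arrays 3 and 4 and Rarb-null array 5 (0.23; limma, adjusted p = 0.069).

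The other 7 CCT subunits were not called. Cct3 had -0.11 (SE 0.042; limma, adjusted p = 0.084), and Cct2, Cct4, Cct5, Cct6a, Cct7 and Cct8 lay between -0.04 and 0.039. Within an array, Tcp1 minus the mean of the other 7 was 0.00 ± 0.13 in WT and 0.25 ± 0.07 in Rarb-null, a comparison chosen after the values were seen. The ranges, -0.09 to 0.25 and 0.13 to 0.32, overlapped.

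Hspd1 encodes Hsp60, the chaperonin of mitochondria, and Hspe1 the lid that closes its chamber. Hspd1 read 10.54 to 10.80 in WT (median 10.62) and 10.54, 10.48, 10.45, 10.48 and 10.45 in Rarb-null arrays 1 to 5. Rarb-null array 1 met the lowest WT array, and the other 4 were below all WT arrays. The means were 10.64 ± 0.09 and 10.48 ± 0.04, a difference of -0.16 (SE 0.043) or 1.12-fold (limma, adjusted p = 0.021; two-sided exact permutation p = 0.00649). A second probe set gave -0.22 with no overlap (limma over probe sets, adjusted p = 0.0134). The difference was -0.12 after centring (limma, adjusted p = 0.0585) and -0.09 with the oligodendrocyte covariate (limma, adjusted p = 0.345), and leaving out Rarb-null array 3 ended the call (limma, adjusted p = 0.0551).

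Hspe1 read 10.62 ± 0.07 in WT and differed by -0.07 (limma, adjusted p = 0.388). The 2 genes lie head to head on chromosome 1, and their RefSeq promoter windows share 285 of 300 bases. Hspd1 minus Hspe1 within an array was taken from the brightest probe set of each gene. It was 0.02 ± 0.07 in WT and -0.07 ± 0.13 in Rarb-null (two-sided exact permutation p = 0.169). With these probe sets and 11 arrays, a different change of the partners was not detected. The second Hspd1 probe set, at -0.22, was not compared with Hspe1 in this way, so whether the partners changed differently is uncertain. Their shared stretch (GRCm38.p6, chr1:55088053-55088082, plus strand, 65 bases short of the Hspe1 start) holds the longer heat shock element in overlapping copies, in capitals:

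Hspe1: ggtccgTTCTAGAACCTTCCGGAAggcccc

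Neither Hsp90 gene measured was called, and neither was any of the 7 genes with an Hspb symbol tested (0 at an unadjusted p under 0.05 in limma in either family). Hsp90aa1, the cytosolic form, read 12.13 ± 0.05 in WT with a difference of -0.03 (SE 0.031; limma, adjusted p = 0.505), and Hsp90b1, of the endoplasmic reticulum, 0.01 (SE 0.036; limma, adjusted p = 0.829). Among the latter, differences ran from -0.06 to 0.13. Hspb6 read 7.68 to 8.65 in WT, an SD of 0.31 against 0.07 in Rarb-null arrays, and its difference was 0.11 (limma, adjusted p = 0.527). Hspb1, Hspb8, Hspb2 and Hspb9 had -0.063, -0.063, 0.134 and 0.098, and Hspb3 and Hspb7 were too dim to test. Hspb11, a protein of ciliary transport, and Hspbap1, a partner of Hspb1, are here by symbol and are no small heat shock proteins themselves.

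RefSeq promoter windows of 300 bases (250 before a start and 50 after, GRCm38.p6) were found for 71 of the 86 genes. Paired heat shock units, GAANNTTC on either strand, lay in those of 15 genes, 21.1%, beside 9.04% of all 27025 genes with a window. The longer element (GAANNTTCNNGAA or TTCNNGAANNTTC), which always includes a pair, lay in those of Dnajb6, Hspd1, Hspe1 and Hsph1, 5.63% beside 0.662%. Of these 4, Hspd1 and Hsph1 fell, Hspe1 was not called and Dnajb6 was not tested. The windows of Hspd1 and Hspe1 share 285 of 300 bases, so the same element is counted for both genes, here and among the 15. The endoplasmic reticulum stress element lay in those of Dnajc3, Hsp90b1 and Hspa5, 4.23% beside 0.137%, and of these Dnajc3 fell and the other two were not called. Direct repeats of a retinoic acid receptor motif (AGGTCA or AGTTCA) spaced by 2 or by 5 bases were in the windows of 0 of 71 genes, beside 0.0444% and 0.0481% of all genes. At shares this low, a count of 0 among 71 genes was likely in any case, so nothing about these genes is read from it.

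The wider pathways, from lists chosen with earlier results of these data known, held calls in both directions. Of 17 tested targets of heat shock factors, 1 rose (Hspa1a) and 3 fell (Hsph1, Hspd1 and Chordc1), with a median of -0.056. These are 5.88% higher and 17.6% lower, beside 7.56% and 12% of all genes. Hspa1a, the only riser, was tested through its higher group, as described above, so its call adds little about the set. Chordc1, an Hsp90 partner, had -0.19 (SE 0.064; limma, adjusted p = 0.0492) and lost the call in 8 of 11 fits without an array. For Chordc1 the adjusted p in limma was 0.0679 after centring and 0.079 after repeated quantile normalisation. With the cortical and the oligodendrocyte covariate it was 0.167 and 0.216. After centring, 1 of the 17 was higher and 1 lower, and the median was -0.016. With the cortical covariate 0 of the 17 were called by limma, beside 2.79% higher and 6.11% lower of all genes. With the oligodendrocyte covariate only Hspa1a was called, as higher, beside 2.06% higher and 5.02% lower of all genes. Of 3 tested heat shock transcription factors and their regulators, Hsf4 rose: it read 7.74 to 8.01 in WT and 8.17 to 8.31 in Rarb-null arrays, without overlap (0.35, SE 0.051; limma, adjusted p = 0.000431). Hsf2 had -0.14 and Hsbp1, which binds heat shock factors, 0.06, and neither was called.

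Of 24 genes of endoplasmic reticulum chaperones and the unfolded protein response, 0 rose in limma and 3 fell: Dnajb11, Dnajc3 and Atf6, with a median of -0.041. The share lower, 12.5%, is near the 12% of all genes, so the count is no result about the set. Atf6, a membrane sensor that becomes a transcription factor under stress, fell by 0.15 on the log2 scale (SE 0.035; limma, adjusted p = 0.0106), and Rarb-null arrays at 9.55 to 9.68 ended just under the WT range of 9.68 to 9.82. With the oligodendrocyte covariate its difference was -0.16 (limma, adjusted p = 0.0796). After centring, 1 was lower (Atf6) and 1 higher (Sil1), and the median was -0.001. Atf4, a transcription factor of the same response, had -0.16 (limma, adjusted p = 0.0641).

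Of 15 mitochondrial chaperones and proteases, 1 fell (Hspd1) and 14 were not called, 5 of them with an unadjusted p under 0.05, with a median of -0.063. The share lower was 6.67%, beside 12% of all genes. Differences were negative for 13 of 15, and for 9 of 15 after centring, when 0 were called by limma. The list made for synaptic and clathrin chaperones held 7 tested genes, with 0 calls in limma and a median of 0.015. Its 1 unadjusted p under 0.05 was that of Dnajc14, which is in the list by choice and whose role at synapses was not examined. Of 15 prefoldin and tubulin cofactors, which hand substrates to CCT, Pfdn2 rose by 0.14 (SE 0.037; limma, adjusted p = 0.0214) and 14 were not called; with the cortical and the oligodendrocyte covariate Pfdn2 was at 0.10 and 0.12 and not called (limma, adjusted p of 0.266 and 0.195). Pfdn5 and Pfdn6, at 0.11 and 0.17, were not called, and were called higher after centring and after repeated quantile normalisation.

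Of 29 other co-chaperones tested, 1 rose and 3 fell, with a median of -0.036. These are 3.45% and 10.3%, beside 7.56% and 12% of all genes. Fkbp5, an Hsp90 partner that restrains the glucocorticoid receptor, read 8.80 to 9.08 in WT and 8.36 to 8.79 in Rarb-null arrays, without overlap (-0.43, SE 0.07; limma, adjusted p = 0.001). St13, which holds Hsp70 on its substrate, had -0.22 (SE 0.041; limma, adjusted p = 0.00288), also without overlap. Both were past the threshold in all settings but the oligodendrocyte covariate, at -0.32 and -0.17 (limma, adjusted p of 0.0539 and 0.092). Serpinh1, a collagen chaperone, had 0.17 (limma, adjusted p = 0.0466) and lost the call in 7 of 11 fits without an array. The third that fell was Chordc1, given above.

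Single arrays were often extreme for chaperone genes. WT array 1 was the highest of the 11 for 21 of 75 chaperone genes, 28%, beside 12.8% of all genes tested. Rarb-null array 3 was the lowest for 15, 20% beside 10.8%, and the highest for 0. Rarb-null array 2 was the lowest for 20, 26.7% beside 25% of all genes. Without WT array 1, WT array 5, Rarb-null array 2 or Rarb-null array 3, the number called lower was 4, 4, 4 and 3 instead of 7. The share of all genes called lower also fell in these fits, to 9.54%, 9.16%, 8.22% and 8.05% instead of 12%.

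**Figure D4:**
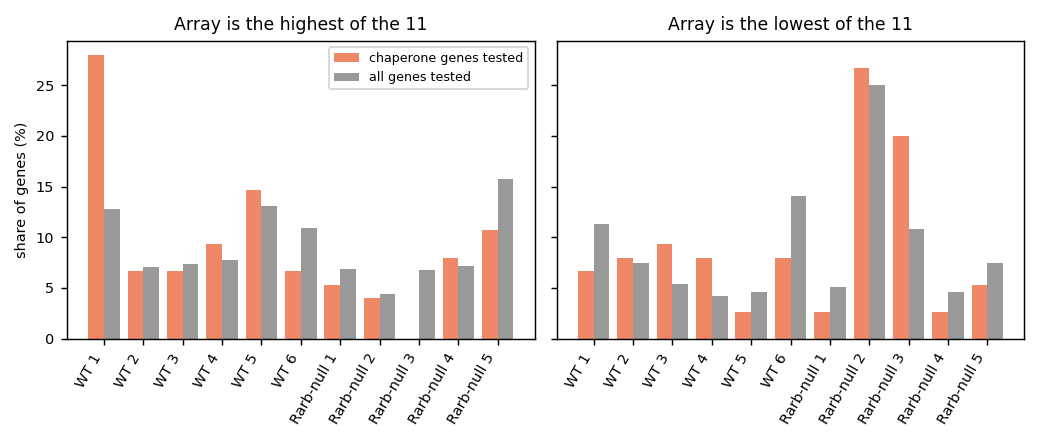
Share of genes, in %, for which each of the 11 arrays was the highest (left) or the lowest (right), with bars for the 75 chaperone genes and for all 11963 genes tested. WT array 1 was the highest for 28% of chaperone genes, and Rarb-null arrays 2 and 3 were the lowest for 26.7% and 20%.

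The called genes were spread over 8 chromosomes, with Bag5 and Hspa2 on chromosome 12 and Hspa1a and Tcp1 on chromosome 17. Among the genes next to them, up to 2 on each side, 25 were tested, 9 were called lower (36%, beside 12% of all genes), 1 higher (4%, beside 7.56%) and 15 not. All 3 tested neighbours of Dnajc12 (Herc4, Sirt1 and Lrrtm3, from -0.21 to -0.12) were lower. The 9 also included Coq10b beside Hspd1 (-0.31) and Brix1 beside Dnajc21 (-0.20), and the 1 was Acat3 beside Tcp1 (0.29). For Hspa2 and Bag5, 0 of the neighbours tested were called by limma.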

How the data were processed

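The authors deposited log2 expression values after RMA of 11 arrays, per the labels; the log base was inferred from their range. RMA is meant to even out overall brightness and can compress differences of dim probe sets, so folds of dim genes may be understated. Array medians after RMA still differed between the genotypes, as given above. The software version and annotation behind the values are not given in the sources used here.

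Symbols came from the platform annotation: of 35556 probe sets, 21789 had 1 symbol, 1621 several and 12146 none in that table, and 21698 were matched through Entrez to RefSeq (GRCm38.p6). Members came from 109 probe sets. The brightest probe set stood for a gene, and genes whose mean passed the 40th percentile (a log2 level of 6.99) entered limma 3.58.1 under R 4.3.3 (functions lmFit and eBayes without covariates), with Benjamini-Hochberg adjustment over 11963 genes and a threshold of 0.05. Single values were also tested with a two-sided exact permutation test over 462 splits. The procedure was tested on simulated data. Alternatives were other filters, scalings and variance models, probe set means, marker covariates, a replicate block and leaving out arrays; fitting every probe set on its own was added after seeing the data. Figures used matplotlib 3.10.9.

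Genes named were Rarb, every member called, the brightest of each family, the 6 members next in p, up to 4 genes of each pathway list with the smallest p, and members whose promoter is printed. Others, such as Coa8, Uggt2, the further Hspa, Hspb, DnaJ and BAG genes and neighbours of called genes, were named after their values were seen. Members and lists were chosen with earlier results of these data known. The labels put each array on separate mice by title and do not tie replicate numbers together. No scan date or batch was used here, and the number of arrays limits the precision.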

Additional observations from a re-analysis of the deposited data

Results flagged for a closer look

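In 50 groups of arrays, 6 WT or 5 Rarb-null for each of 25 genes, 2 held an array far from the others; chance flags about 1 group in 20. Dnajb11 read 9.11 in WT replicate 1, above 8.89 to 8.97 in the other WT arrays. Dnajc12 read 8.59 in WT replicate 6, below 8.75 to 8.84 in the other WT arrays.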

How the results depend on the processing

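Over 23 settings, 366 values of 16 named chaperone genes were computed: 307 kept their direction and side of the threshold, 46 lost the call, 13 gained it and 0 changed sign. Hspa2 and Bag5 kept their calls throughout. The setting with symbols as annotated changed 0 symbols, so its values repeat the main fit and are no separate check, though they count among the 307. For genes with a single probe set, the mean of all probe sets also left the difference unchanged. The median over the chaperone genes turned to 0.009 when arrays were centred on the median of tested genes. Centring gave 5 chaperone genes higher and 3 lower, and repeated quantile normalisation 5 and 4. Over all genes, 905 higher and 1436 lower became 1677 and 939 with centring, 1181 and 1170 with repeated quantile normalisation, 1278 and 1229 with no filter and 510 and 1209 with a filter at the 60th percentile. The number of chaperone genes called lower was 1 with the cortical covariate, 3 with the oligodendrocyte covariate and 2 without 3 arrays (WT replicates 3 and 4, Rarb-null replicate 5); over all genes 1065, 847 and 1347 were called in those settings, the last of them with fewer arrays. Leaving out each array in turn gave 3 to 8 chaperone genes called lower, 3 higher in all 11 fits, and 1547 to 2576 calls over all genes; the causes were not tested. With the replicate block, 4 chaperone genes were higher and 10 lower, the median was -0.036 and 2872 genes were called in all. The labels do not say what the replicate numbers mean. Deviations of same-numbered arrays correlated at 0.257, 0.056, 0.255, 0.188 and 0.425 (mean 0.24), against a mean of -0.06 over the 20 other pairs, a hint from the data of pairing. Pair 2 was not over 0.1, and WT arrays 2 and 4 correlated best with another number (0.457 and 0.214), so the numbers were not taken to pair the mice. With each probe set fitted on its own, 3 chaperone genes were higher and 9 lower, Dnaja1 and Hspa8 being the additions. Signal over background was not analysed here, so how far dim genes such as Hspa1a are limited by it is unknown.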
